A study of Mus musculus with 12 samples.

Results

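Fatty acid uptake, storage, synthesis and oxidation genes were examined in lung macrophages of tumor-bearing mice. The set held 49 genes, chosen by symbol with earlier results of these data known. It had 12 for uptake and binding, 8 for lipid droplets and their lipases, 11 for synthesis and 18 for oxidation. Of these, 48 were among the 14648 genes with counts, and 47 reached 1 CPM (reads per gene scaled to library size) in all 12 libraries. *Ppara* was not analysed here. RNA-Seq had been run on alveolar macrophages (AMs), CD11c+ interstitial macrophages (IMs) and CD11c- IMs from *Il9r*-/- and WT mice on a C57BL/6 background, with 2 libraries for each of the 6 groups. All mice, WT controls included, carried B16 melanoma, a mouse tumor line given intravenously. Macrophages were gated as MerTK+ CD64+ and separated by SiglecF and CD11c. The animals behind each library and their ages are not given in the labels, so p-values measure the spread between libraries. The comparisons address how the populations differ and how libraries labelled *Il9r*-/- differ from WT ones.

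Macrophages take up fatty acids through CD36 and through lipoprotein lipase, and carry them inside the cell on fatty acid binding proteins. Surplus fatty acid is esterified and stored in lipid droplets, which perilipins coat and lipases break down. Oxidation begins when carnitine palmitoyltransferases bring long-chain fatty acids into mitochondria, while very long chains are shortened in peroxisomes. AMs clear surfactant lipid in the air spaces, and their identity depends on the nuclear receptor PPARγ.

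Before any comparison, the labels were checked against genes that should follow them. *Siglecf*, which marks AMs, stood at 23.5 to 65.1 CPM in CD11c+ IMs and 10.8 to 32.8 CPM in CD11c- IMs, against 616 to 686 CPM in AMs. A list of 16 IM markers summed to 13600 to 21300 CPM and 10500 to 26700 CPM in CD11c+ and CD11c- IMs, against 2670 to 2900 CPM in AMs. *Itgax*, the gene of CD11c, was 302 to 437 CPM in CD11c+ IMs against 27.9 to 54.1 CPM in CD11c- IMs. *Il9r* went against its label. It stood at 6.60 and 6.82 CPM in AMs labelled *Il9r*-/- against 0.627 and 0.326 CPM in WT AMs, and at 4.34 and 4.19 CPM in CD11c+ IMs labelled *Il9r*-/- against 0.158 and 0.495 CPM in WT CD11c+ IMs. In CD11c- IMs it stood at 2.59 and 6.09 CPM under the *Il9r*-/- label and 0.750 and 6.47 CPM under WT. Groups are therefore named by their label, and whether the deleted part of the gene is covered by these reads was not tested. *Xist* and the Y-linked genes divided the WT libraries by sex: the 3 WT libraries numbered 1 carried *Xist* at 12.5 to 27 CPM, and no other library exceeded 0.0478 CPM. A list of 6 pan-macrophage markers, led by *Lyz2*, *Cd68* and *Ptprc*, was lower in IMs. It summed to 25000 to 44000 CPM in CD11c+ IMs and 18400 to 27400 CPM in CD11c- IMs, against 52000 to 57300 CPM in AMs. Markers of other cells were not evenly spread. A sum of 11 melanocyte markers without *Gpnmb* was 72.7 to 872 CPM in CD11c+ IMs and 3610 to 9630 CPM in CD11c- IMs, against 89.2 to 361 CPM in AMs, and none of these markers was at 0 in all libraries of a population. Over 21 lung epithelial markers the sums were 606 to 1140, 1070 to 7560 and 1570 to 1780 CPM in CD11c+ IMs, CD11c- IMs and AMs. Neutrophil markers summed to 439 to 2750 CPM in CD11c+ IMs and 832 to 8120 CPM in CD11c- IMs, against 210 to 366 CPM in AMs, and B cell markers to 100 to 484 CPM and 182 to 1510 CPM, against 23.8 to 50.7 CPM in AMs. The adipocyte list, of which 4 of 11 markers were in the table, summed to no more than 5.76 CPM in any library. In these bulk samples, fewer cells of a type and less RNA per cell cannot be told apart.

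The largest differences in the set fell on *Fabp1*, which binds fatty acids in the cytosol, *Cidec*, a lipid droplet protein, and *Acaa1b*, a peroxisomal thiolase. The stretch around the start of each is shown because PPAR receptors are known to act on lipid genes through a repeat of 2 half-sites. RefSeq windows of the build GRCm38.p6 were used, from 250 bases before a start to 50 after it. A window existed for 39 of the 49 genes. The repeat was searched on both strands as 2 copies of AGGNCA that are 1 base apart, with N any base. It was found in *Fabp1*, where it begins 67 bases before the start, and in *Elovl1*, a fatty acid elongase, 95 bases before 1 of its starts. These are 5.13% of the members with a window, while 0.451% of 27025 genes had a match. Capitals mark the repeat. *Cidec* and *Acaa1b* had no match, so those letters are not in these windows, and a match is a description of the sequence only. The *Cidec* window shown belongs to 1 of its starts. Its window at chr6:113435711-113436010, which holds the outer end of the gene as deposited, is not shown and had no match either.
Fabp1 (chr6:71199629-71199928, plus strand): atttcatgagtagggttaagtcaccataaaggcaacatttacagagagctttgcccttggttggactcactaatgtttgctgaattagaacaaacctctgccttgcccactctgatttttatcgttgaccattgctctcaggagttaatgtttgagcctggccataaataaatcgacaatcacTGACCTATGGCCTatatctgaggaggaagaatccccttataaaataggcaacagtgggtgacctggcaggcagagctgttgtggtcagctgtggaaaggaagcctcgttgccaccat
Elovl1 (chr4:118429451-118429750, plus strand): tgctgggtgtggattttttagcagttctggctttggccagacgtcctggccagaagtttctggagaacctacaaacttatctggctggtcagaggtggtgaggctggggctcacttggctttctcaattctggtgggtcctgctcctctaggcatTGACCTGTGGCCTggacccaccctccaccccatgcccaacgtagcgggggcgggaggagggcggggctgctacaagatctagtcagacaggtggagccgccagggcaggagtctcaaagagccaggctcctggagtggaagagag
Cidec (chr6:113434715-113435014, minus strand): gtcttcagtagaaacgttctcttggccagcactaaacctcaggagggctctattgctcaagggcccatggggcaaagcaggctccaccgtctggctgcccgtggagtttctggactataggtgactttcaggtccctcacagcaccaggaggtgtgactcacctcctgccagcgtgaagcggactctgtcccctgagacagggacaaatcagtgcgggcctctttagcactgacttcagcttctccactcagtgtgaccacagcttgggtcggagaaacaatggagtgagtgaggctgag
Acaa1b (chr9:119157044-119157343, minus strand): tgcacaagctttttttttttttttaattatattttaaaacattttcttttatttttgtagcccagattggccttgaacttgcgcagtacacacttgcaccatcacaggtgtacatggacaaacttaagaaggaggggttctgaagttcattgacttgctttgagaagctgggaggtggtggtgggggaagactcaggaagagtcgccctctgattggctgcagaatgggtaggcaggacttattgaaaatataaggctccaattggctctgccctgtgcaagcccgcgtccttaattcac
The sterol element TCACNCCAC was present in *Acsl1* and *Ehhadh* (1.44% of all genes) and the E-box CACGTG in *Elovl5*, *Lipe*, *Mgll*, *Plin2* and *Slc27a1* (12.8% of the members with a window and 8.09% of all genes).

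Both IM populations were lower than AMs across most of the set. As the set was chosen with earlier results of these data known, its shares beside those of all genes are a description. In CD11c+ IMs, 25 of the 48 members (52.1%) were below AMs and 4 (8.33%) above them at an edgeR adjusted p of less than 0.05, where 10.7% of all genes were lower and 15.9% higher. In CD11c- IMs, 32 members (66.7%) were lower and 7 (14.6%) were higher, beside 17.8% and 27.9% of all genes. The median log2 fold change of the members was -0.64 in CD11c+ IMs, with a median of 0.03 over all genes, and -0.89 in CD11c- IMs, with 0.12 over all genes. By role, 14 of the 17 oxidation genes were lower in CD11c+ IMs, the CD11c- population had 16, and none was higher in either, whereas synthesis held 4 lower and 4 higher of 11 in CD11c- IMs. Both comparisons share the 4 AM libraries. All 29 and all 39 called members had the same sign within the *Il9r*-/- label and within WT. Within libraries labelled *Il9r*-/- alone, 18 members passed between CD11c+ IMs and AMs, fewer by over 1.5 times.

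**Figure D1:**
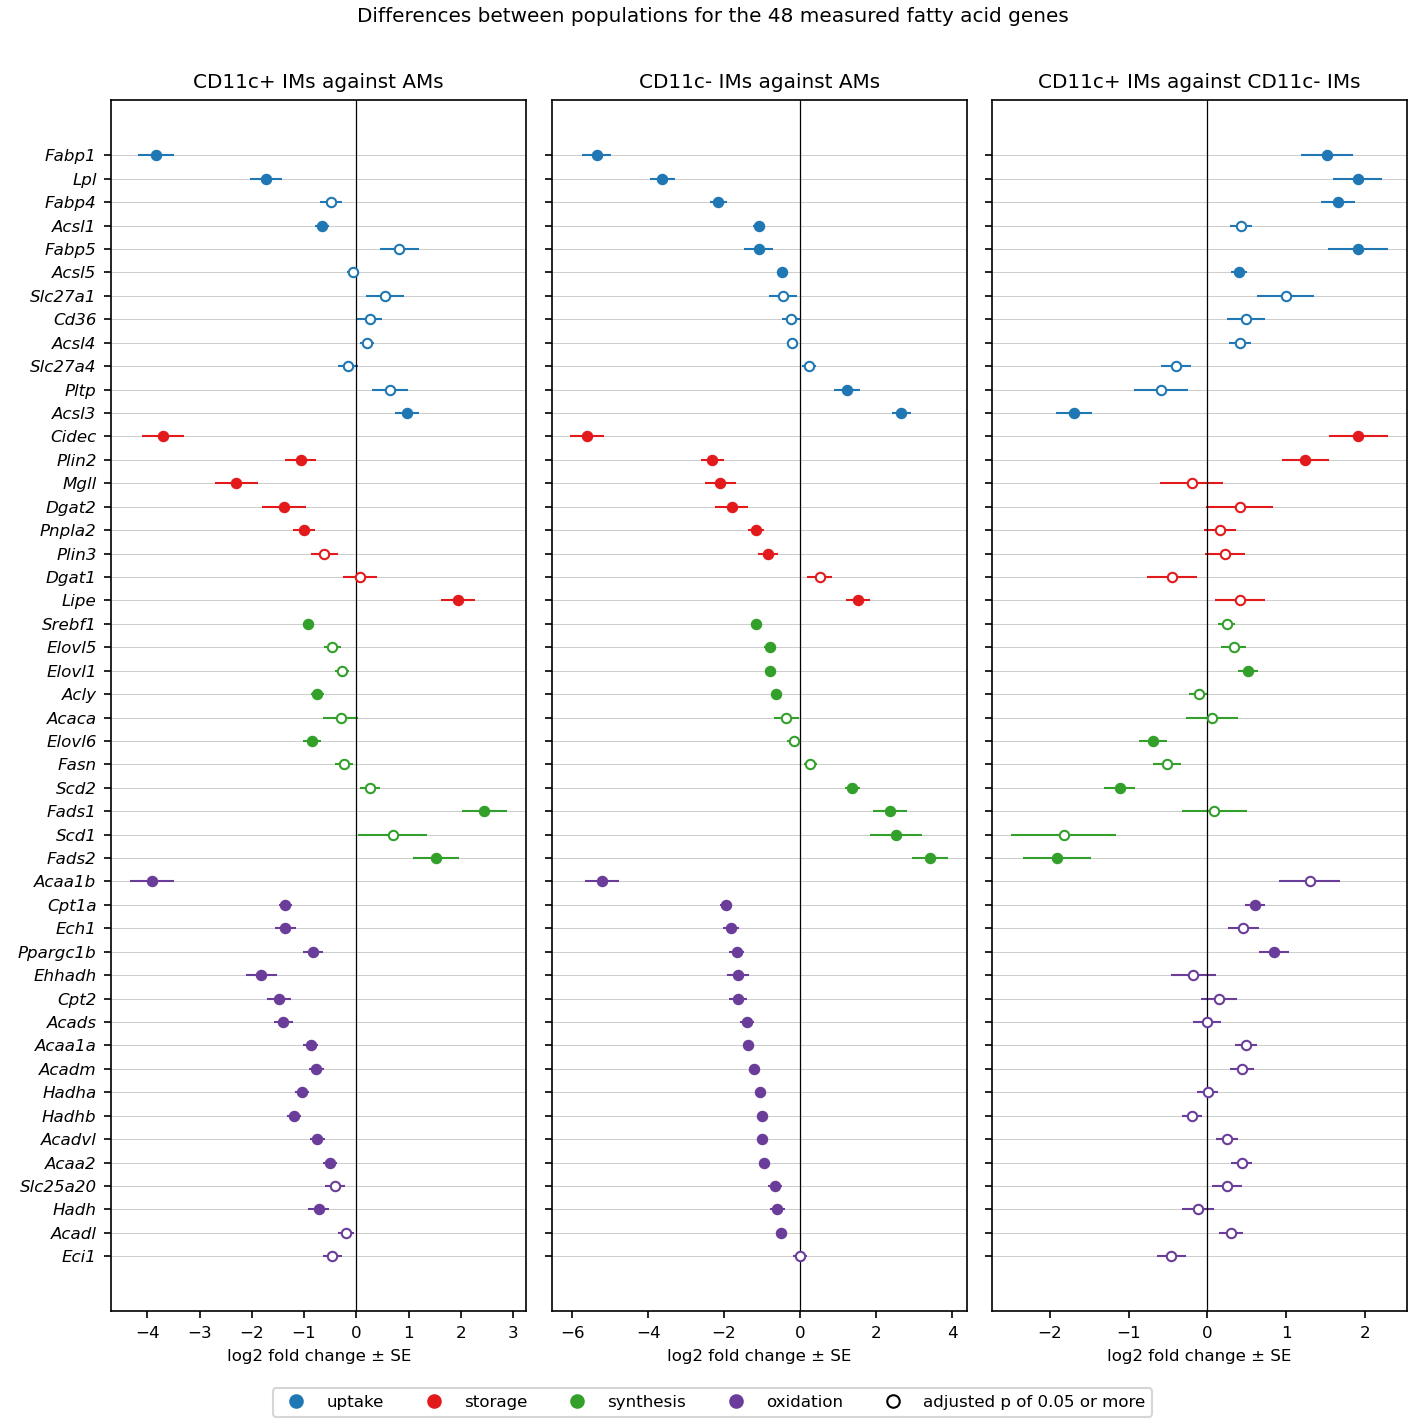
Log2 fold change ± SE of each measured member between populations, averaged over the genotype labels, with genes down the page by role and filled points for an adjusted p under 0.05. Oxidation genes lie left of 0 in both comparisons with AMs, where 14 and 16 of 17 are filled, while *Fads1*, *Fads2*, *Acsl3* and *Lipe* lie right of 0.

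Among uptake genes, the lipase and the binding proteins set the populations apart, and the scavenger receptor CD36 did not. *Cd36*, which imports long-chain fatty acids, stood at 750 and 598 CPM (labelled *Il9r*-/-) and 655 and 676 CPM (WT) in CD11c+ IMs, at 657 and 364 CPM (labelled *Il9r*-/-) and 590 and 304 CPM (WT) in CD11c- IMs, and at 589 and 613 CPM (labelled *Il9r*-/-) and 484 and 562 CPM (WT) in AMs. These levels overlapped between populations, and the log2 fold changes of 0.26 ± 0.24 and -0.23 ± 0.24 (SE) against AMs had adjusted p-values of 0.489 and 0.470. *Lpl*, which releases fatty acids from triglyceride-rich lipoproteins, stood at 1480 and 643 CPM (labelled *Il9r*-/-) and 1240 and 765 CPM (WT) in CD11c+ IMs and at 340, 225, 323 and 217 CPM in the 4 CD11c- IM libraries, against 3000, 3690, 3260 and 3710 CPM in AMs. No population overlapped another for *Lpl*. Its log2 fold change was -1.73 ± 0.30 in CD11c+ IMs (adjusted p = 0.00321) and -3.63 ± 0.33 in CD11c- IMs (adjusted p = 5.26e-05, edgeR quasi-likelihood test).

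*Fabp1* was the uptake gene with the largest fall against AMs. Its level was 63.1 and 20.1 CPM (labelled *Il9r*-/-) and 10.3 and 7.58 CPM (WT) in CD11c+ IMs and 12.7 and 7.79 CPM (labelled *Il9r*-/-) and 4.05 and 4.83 CPM (WT) in CD11c- IMs, against 340 and 357 CPM (labelled *Il9r*-/-) and 201 and 234 CPM (WT) in AMs. Every IM library was under every AM library, and 1 CD11c+ IM library, number 1 under the *Il9r*-/- label, stood above the other IM libraries. The log2 fold changes were -3.83 ± 0.35 (adjusted p = 0.000121) and -5.35 ± 0.38 (adjusted p = 2.03e-05) in CD11c+ and CD11c- IMs.

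The related binding proteins did not follow *Fabp1*. *Fabp4*, a carrier known from adipocytes and macrophages, was 39.2, 28.5, 55.2 and 34.2 CPM in CD11c+ IMs and 11.9, 13.9, 13.7 and 9.91 CPM in CD11c- IMs, against 60.9, 63.2, 57.2 and 38.9 CPM in AMs. CD11c+ IMs overlapped with AMs (log2 fold change -0.49 ± 0.21, adjusted p = 0.120), and CD11c- IMs were lower (-2.15 ± 0.22, adjusted p = 9.56e-05). *Fabp5*, a carrier found in many tissues, was 522 and 249 CPM (labelled *Il9r*-/-) and 917 and 494 CPM (WT) in CD11c+ IMs and 131 and 71.1 CPM (labelled *Il9r*-/-) and 277 and 105 CPM (WT) in CD11c- IMs, against 303, 313, 318 and 248 CPM in AMs. It was lower in CD11c- IMs than in AMs (-1.09 ± 0.38, adjusted p = 0.0405), while the value of 0.82 ± 0.37 in CD11c+ IMs had an adjusted p of 0.142. The *Fabp5* call in CD11c- IMs was lost without any 1 of 6 libraries, the 4 AM libraries and the CD11c- IM libraries numbered 2 (adjusted p = 0.0658 to 0.122). Of the 100-base words of its transcript, 9.01% are shared with other genes, so part of its count is uncertain.

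Acyl-CoA synthetases, which activate fatty acids, moved in both directions. *Acsl3*, found on the endoplasmic reticulum and lipid droplets, was 11.5, 14.6, 13.2 and 13.8 CPM in CD11c+ IMs and 52.0, 26.3, 55.2 and 38.5 CPM in CD11c- IMs, against 6.55, 6.85, 7.25 and 6.26 CPM in AMs. The 3 populations did not overlap, with log2 fold changes of 0.98 ± 0.23 (adjusted p = 0.0129) and 2.67 ± 0.24 (adjusted p = 5.16e-05). Without WT AM library 2 the CD11c+ IM value had an adjusted p of 0.0549. *Acsl1*, by contrast, was lower in both IM populations, at 65.6 to 83.0 CPM in CD11c+ IMs and 39.5 to 66.4 CPM in CD11c- IMs against 99.7 to 124 CPM in AMs. *Acsl5* was lower in CD11c- IMs (-0.47 ± 0.10, adjusted p = 0.00565) and did not pass in CD11c+ IMs, and *Acsl4* passed in neither. *Pltp*, which transfers phospholipids between lipoproteins, was 923 and 437 CPM (labelled *Il9r*-/-) and 1130 and 358 CPM (WT) in CD11c- IMs, against 257, 306, 315 and 328 CPM in AMs (log2 fold change 1.24 ± 0.35, adjusted p = 0.0168). The 2 CD11c- IM libraries numbered 1 were the high ones. Without CD11c- IM library 1 of the *Il9r*-/- label, or without AM library 1 of that label, WT AM library 1 or WT AM library 2, the adjusted p for *Pltp* was 0.0524 to 0.0615, and without the 3 WT libraries numbered 1 its log2 fold change was 0.70. The fatty acid transporters *Slc27a1* and *Slc27a4* passed in neither comparison with AMs.

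**Figure D2:**
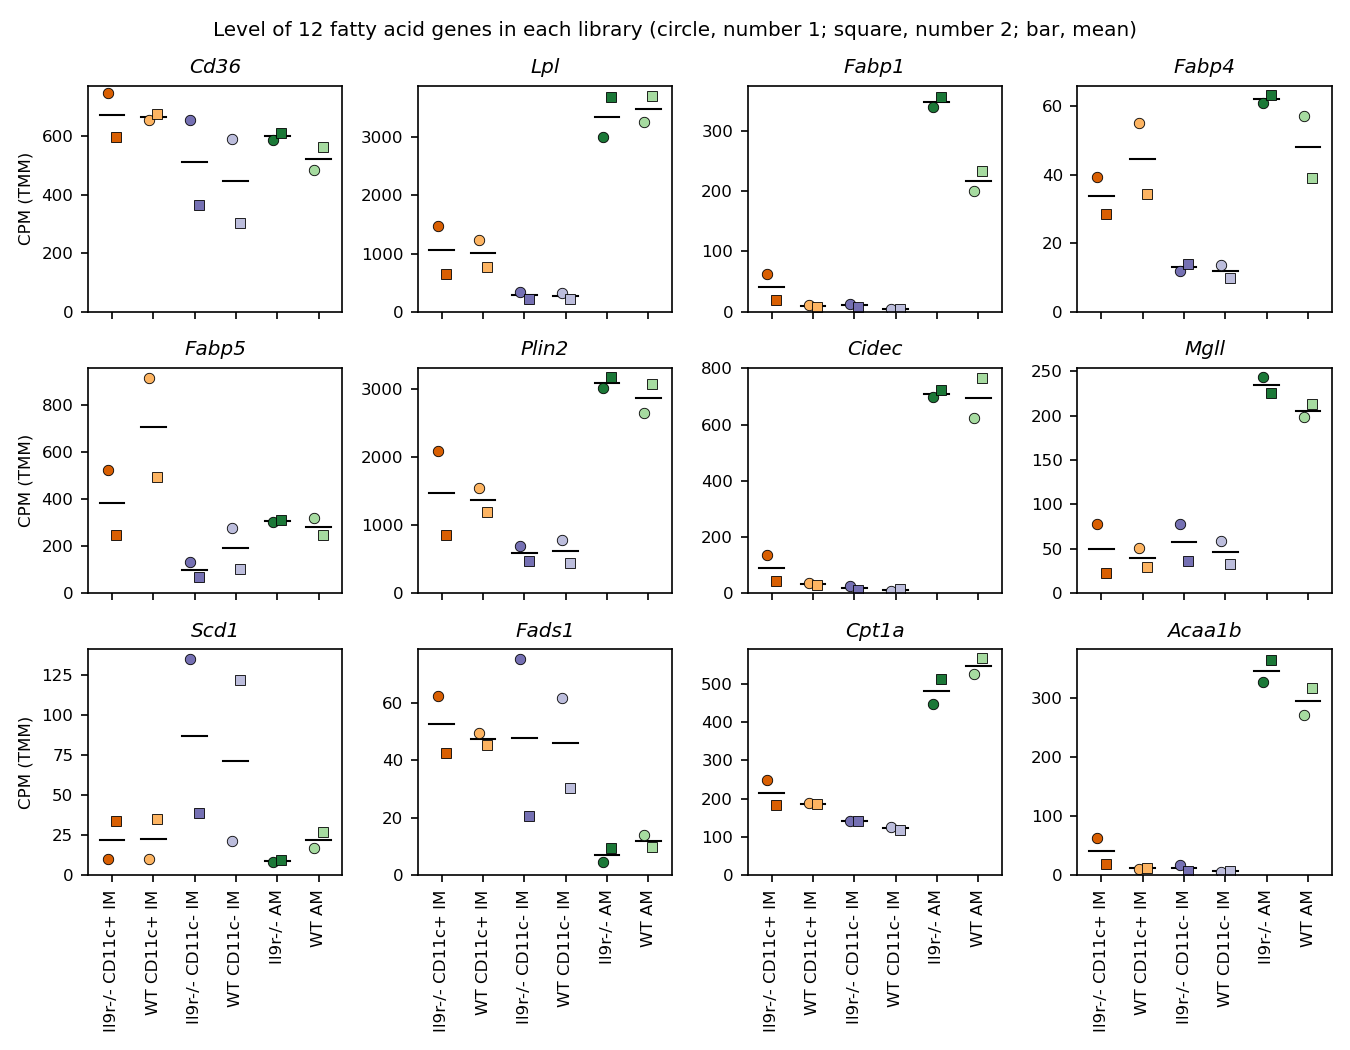
Level of 12 members in each library in CPM on linear axes that start at 0, with a circle for library 1, a square for library 2 and a bar for the mean of each group. *Fabp1*, *Cidec* and *Acaa1b* are high in the AM groups, *Cd36* is at 304 CPM or above in all libraries, and *Fabp5* is highest in WT CD11c+ IM library 1 at 917 CPM.

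Lipid droplet genes were mostly lower in IMs, with 1 lipase the other way. *Plin2*, which coats the droplet and had the highest level per length of the set in CD11c+ IMs and AMs, was 2090, 856, 1550 and 1200 CPM in CD11c+ IMs and 694, 478, 785 and 452 CPM in CD11c- IMs, against 3010, 3180, 2650 and 3080 CPM in AMs. CD11c+ IM levels lay below those of AMs without overlap, and CD11c- IMs lay below both. The log2 fold changes were -1.06 ± 0.30 (adjusted p = 0.0282) and -2.31 ± 0.31 (adjusted p = 0.000428). The call for CD11c+ IMs was lost without any 1 of the 8 libraries compared except CD11c+ IM library 1 of the *Il9r*-/- label, with adjusted p-values of 0.0554 to 0.109. *Cidec*, which enlarges droplets, had the largest change of this role: 137 and 42.9 CPM (labelled *Il9r*-/-) and 35.8 and 29.9 CPM (WT) in CD11c+ IMs and 25.1 and 12.2 CPM (labelled *Il9r*-/-) and 8.19 and 14.1 CPM (WT) in CD11c- IMs, against 698, 723, 624 and 765 CPM in AMs. As for *Fabp1*, the highest IM value belonged to CD11c+ IM library 1 of the *Il9r*-/- label. The log2 fold changes were -3.69 ± 0.40 (adjusted p = 0.000279) and -5.61 ± 0.44 (adjusted p = 3.16e-05).

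Lipases that act one after another on stored triglyceride differed in direction. *Pnpla2*, which takes the first step, was lower in both IM populations, at 116 to 139 CPM in CD11c+ IMs and 71.8 to 170 CPM in CD11c- IMs against 244 to 284 CPM in AMs. *Mgll*, which splits monoglycerides at the end, was 77.6, 22.6, 50.5 and 29.2 CPM in CD11c+ IMs and 78.4, 36.1, 58.9 and 33.1 CPM in CD11c- IMs, against 243, 225, 198 and 213 CPM in AMs, for log2 fold changes of -2.29 ± 0.42 and -2.09 ± 0.41 (adjusted p = 0.00378 and 0.00316). *Lipe*, the hormone-sensitive lipase between them, was higher in IMs: 30.0, 49.7, 25.4 and 45.1 CPM in CD11c+ IMs and 23.8, 41.2, 14.8 and 33.9 CPM in CD11c- IMs, against 10.1, 10.9, 8.43 and 9.62 CPM in AMs. All IM libraries exceeded all AM libraries for *Lipe* (1.94 ± 0.33 and 1.53 ± 0.33, adjusted p = 0.00270 and 0.00463). Within each IM population, but not across both, the sum of 10 neutrophil markers had the same order of libraries. It was 781, 2750, 439 and 1700 CPM in CD11c+ IMs and 4040, 8120, 832 and 4140 CPM in CD11c- IMs. In AMs it was 210 to 366 CPM. The sum of 14 dendritic cell markers, at 1970, 3910, 891 and 2360 CPM, also had that order in CD11c+ IMs. It did not have that order in CD11c- IMs, and was 42.2 to 85.1 CPM in AMs. The part of either was not tested. The enzymes of the last esterification step also parted. *Dgat2* was 89.4, 86.3, 44.8 and 86.5 CPM in CD11c+ IMs and 40, 103, 18.7 and 72.5 CPM in CD11c- IMs, against 188 to 210 CPM in AMs, and *Dgat1* passed in neither comparison. The *Dgat2* call in CD11c+ IMs (-1.39 ± 0.43, adjusted p = 0.0409) was lost without any 1 of the 8 libraries (adjusted p = 0.0558 to 0.126). *Plin3* did not pass in CD11c+ IMs. It passed in CD11c- IMs (-0.84 ± 0.26, adjusted p = 0.0246), and lost its call without any 1 of 6 libraries, the 4 AM libraries and the CD11c- IM libraries numbered 2 (adjusted p = 0.0538 to 0.0800).

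For synthesis, *Fads1* and *Fads2* were higher in both IM populations, *Scd1* and *Scd2* passed in CD11c- IMs, and *Srebf1* and *Acly* were lower in both. *Fads1*, which makes double bonds in polyunsaturated fatty acids, was 62.5, 42.7, 49.6 and 45.3 CPM in CD11c+ IMs and 75.3, 20.7, 61.7 and 30.5 CPM in CD11c- IMs, against 4.49, 9.51, 13.9 and 9.84 CPM in AMs. The ranges did not overlap (2.45 ± 0.44 and 2.37 ± 0.44, adjusted p = 0.00351 and 0.00226). *Fads2*, its partner desaturase, was 2.02, 5.44, 4.82 and 4.72 CPM in CD11c+ IMs and 21.3, 6.81, 22.4 and 13.1 CPM in CD11c- IMs, against 1.07, 0.833, 2.54 and 1.99 CPM in AMs. CD11c+ IMs overlapped with AMs at these low levels; the log2 fold change of 1.52 ± 0.44 (adjusted p = 0.0316) lost its call without any 1 of the 8 libraries except CD11c+ IM library 1 of the *Il9r*-/- label (adjusted p = 0.0667 to 0.119). In CD11c- IMs the value was 3.42 ± 0.47 (adjusted p = 0.000448).

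*Scd1* and *Scd2*, which make monounsaturated fatty acids, passed in CD11c- IMs and not in CD11c+ IMs. *Scd1* was 10.2, 33.8, 10.2 and 34.8 CPM in CD11c+ IMs and 135, 38.5, 21.2 and 122 CPM in CD11c- IMs, against 7.85, 9.51, 16.8 and 26.6 CPM in AMs. *Scd1* varied widely within CD11c- IMs, overlapped with AMs, and lost its call (2.52 ± 0.69, adjusted p = 0.0150) without AM library 1 or CD11c- IM library 1 of the *Il9r*-/- label, WT AM library 1 or WT CD11c- IM library 2 (adjusted p = 0.0523 to 0.0609). *Scd2* was 174 and 96.6 CPM (labelled *Il9r*-/-) and 226 and 165 CPM (WT) in CD11c- IMs, against 48 and 47.8 CPM (labelled *Il9r*-/-) and 92.1 and 72.7 CPM (WT) in AMs (1.37 ± 0.20, adjusted p = 0.000617). *Fasn*, the fatty acid synthase, ran from 47.5 to 72.0 CPM in CD11c+ IMs, 68.3 to 96.3 CPM in CD11c- IMs and 52.5 to 81.9 CPM in AMs, and passed in neither comparison (adjusted p = 0.362 and 0.230). Its regulator *Srebf1* was lower in both, at 77.9 to 87.9 CPM and 66.3 to 74.3 CPM against 141 to 178 CPM in AMs (-0.92 ± 0.10 and -1.16 ± 0.10, adjusted p = 0.000299 and 4.83e-05). *Acly*, which supplies acetyl-CoA, was lower too, with log2 fold changes of -0.75 ± 0.12 and -0.64 ± 0.12. *Elovl5* and *Elovl1*, which lengthen fatty acids, were each at -0.79 in CD11c- IMs (adjusted p = 0.00360 and 0.00111) and did not pass in CD11c+ IMs. *Elovl6* was lower in CD11c+ IMs (-0.85 ± 0.18, adjusted p = 0.00764). *Acaca* did not pass, and 42.8% of its words are shared with a pseudogene.

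Oxidation genes were the most uniform role, each with a negative log2 fold change in both IM populations. The sum of pan-macrophage markers was lower in both as well, and its part was not tested. *Cpt1a*, the entry enzyme of mitochondrial oxidation, was 248, 182, 188 and 186 CPM in CD11c+ IMs and 141, 142, 126 and 119 CPM in CD11c- IMs, against 448, 514, 526 and 569 CPM in AMs. The 3 populations did not overlap, and the log2 fold changes were -1.36 ± 0.13 (adjusted p = 0.000156) and -1.96 ± 0.13 (adjusted p = 1.71e-05). *Cpt2*, which acts after it on the inner membrane, was 24.5 to 43.6 CPM in CD11c+ IMs and 20.7 to 35.5 CPM in CD11c- IMs, against 82.8 to 90.5 CPM in AMs (-1.48 ± 0.23 and -1.63 ± 0.23). The subunits of the mitochondrial trifunctional protein were both lower, with log2 fold changes of -1.05 in each IM population for *Hadha* and -1.19 and -0.99 for *Hadhb*. Of the words of *Hadhb*, 52.8% are shared with pseudogenes. Among the acyl-CoA dehydrogenases, short-chain *Acads* had the largest values (-1.40 ± 0.18 and -1.39 ± 0.18), medium-chain *Acadm* and very-long-chain *Acadvl* were lower in both, and long-chain *Acadl* passed in CD11c- IMs (-0.49 ± 0.15, adjusted p = 0.0253) but not in CD11c+ IMs (-0.19 ± 0.15, adjusted p = 0.394).

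Peroxisomal enzymes were lower as well. *Acaa1b* had the largest fall of any member in CD11c+ IMs: 62.2 and 17.7 CPM (labelled *Il9r*-/-) and 10.7 and 11.8 CPM (WT), with 17.4 and 7.46 CPM (labelled *Il9r*-/-) and 4.8 and 7.09 CPM (WT) in CD11c- IMs, against 327 and 364 CPM (labelled *Il9r*-/-) and 271 and 317 CPM (WT) in AMs. The log2 fold changes were -3.91 ± 0.42 (adjusted p = 0.000267) and -5.21 ± 0.45 (adjusted p = 4.3e-05). Its paralog *Acaa1a* was lower by less (-0.87 ± 0.14 and -1.36 ± 0.15). These 2 genes share 22.6% of the words of *Acaa1b*, so reads in the shared part cannot be assigned to one of them. *Ehhadh*, the peroxisomal bifunctional enzyme, was 16.5, 6.80, 9.27 and 9.98 CPM in CD11c+ IMs and 14.8, 8.25, 14.5 and 10.3 CPM in CD11c- IMs, against 33.9 to 40.3 CPM in AMs (-1.82 ± 0.30 and -1.64 ± 0.29). *Ech1*, which helps oxidize unsaturated fatty acids, was 134 to 252 CPM in CD11c+ IMs and 100 to 141 CPM in CD11c- IMs, against 385 to 487 CPM in AMs. *Ppargc1b*, a coactivator of oxidation genes, was 9.56, 11.7, 16.2 and 11.1 CPM and 7.46, 5.97, 5.96 and 7.45 CPM in CD11c+ and CD11c- IMs, against 20.2 to 22.4 CPM in AMs, with no overlap (-0.82 ± 0.19 and -1.67 ± 0.19, adjusted p = 0.0110 and 0.000173). *Eci1* passed in neither comparison. Calls that failed without 1 library were *Hadh* in both comparisons and *Acaa2* in CD11c+ IMs (adjusted p up to 0.113 and 0.0871 in CD11c+ IMs, and up to 0.110 for *Hadh* in CD11c- IMs), and *Acadl* and *Slc25a20* in CD11c- IMs (up to 0.0826 and 0.0559). For *Hadh*, *Acaa2* and *Acadl* any 1 of the 4 AM libraries was enough, and for *Slc25a20* it was WT AM library 1 or CD11c- IM library 1 of the *Il9r*-/- label.

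The 3 members with the largest falls were set beside AM markers in each IM library. Expressed as a percent of the AM mean with the same genotype label, *Fabp1* was at 18.1% and 5.76% in CD11c+ IMs labelled *Il9r*-/- and 4.73% and 3.48% in WT CD11c+ IMs, and at 3.63% and 2.24% in CD11c- IMs labelled *Il9r*-/- and 1.86% and 2.22% in WT CD11c- IMs. *Cidec* was at 19.2%, 6.04%, 5.15% and 4.30% in CD11c+ IMs and 3.54%, 1.72%, 1.18% and 2.03% in CD11c- IMs. *Siglecf*, which is no member, was at 9.76%, 5.14%, 4.43% and 3.66% in CD11c+ IMs and 4.92%, 2.95%, 1.68% and 2.70% in CD11c- IMs. For these 3 genes the highest percent was in CD11c+ IM library 1 of the *Il9r*-/- label. Most AM markers stood higher than the 3 members. Over all 14 AM markers besides *Fabp1* the median was 34.8%, 15.8%, 21.1% and 25.2% in the CD11c+ IM libraries and 7.43%, 6.97%, 3.88% and 6.25% in the CD11c- IM libraries, and 10 to 13 of the 14 exceeded *Fabp1*, *Cidec* and *Acaa1b* in each library. *Lpl* did not run at that level, with 44.3%, 19.2%, 35.6% and 21.9% in CD11c+ IMs and 6.21% to 10.2% in CD11c- IMs. The AM list of 15 genes, 1 of them *Fabp1*, held 12 lower genes in CD11c+ IMs and 14 in CD11c- IMs, and its 14 other genes summed to 4470 to 18000 CPM and 1420 to 3090 CPM in the IMs against 36700 to 47400 CPM in AMs. None of them was at 0 in a population. Their part in the values of *Fabp1*, *Cidec* and *Acaa1b* was not tested.

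**Figure D3:**
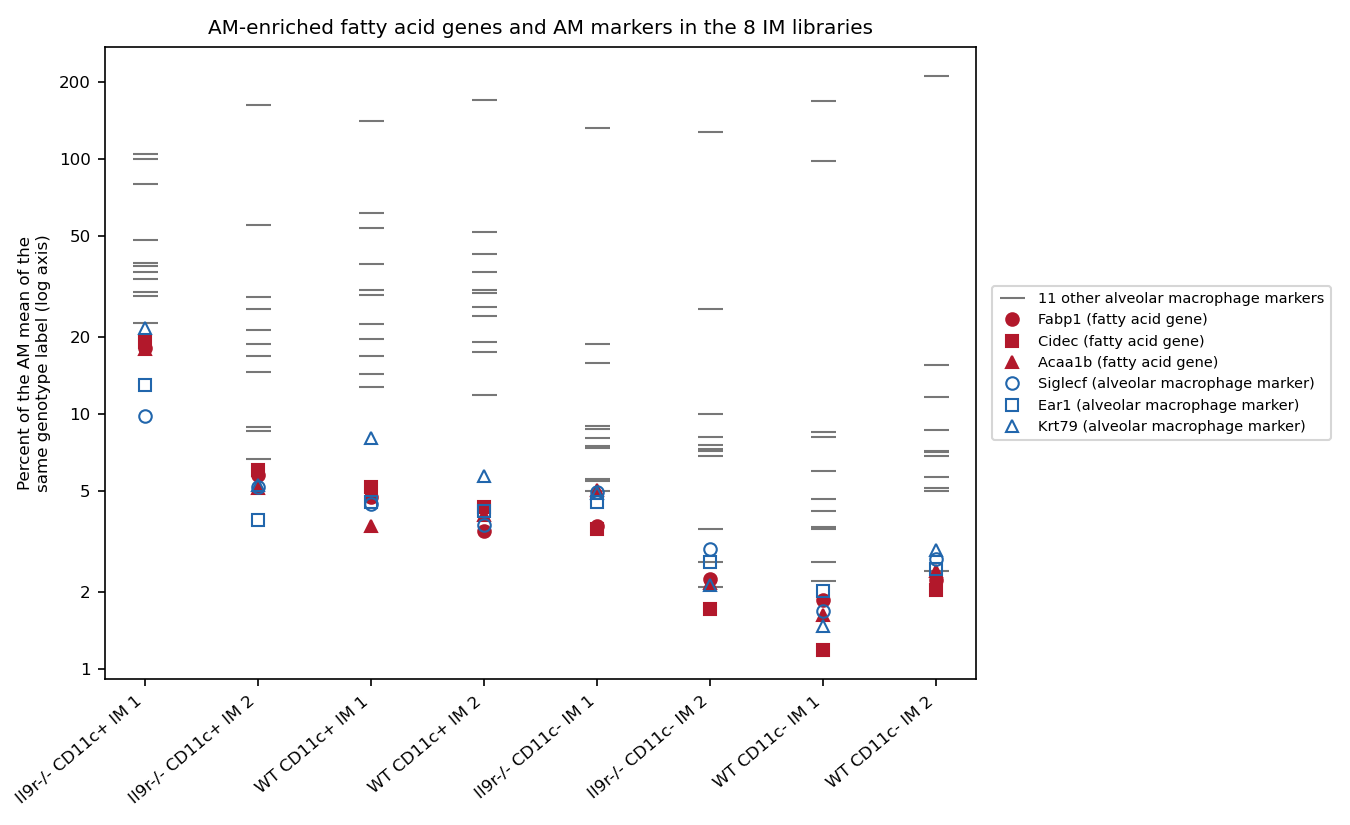
Level of 3 members (filled) and 14 AM markers (open symbols and dashes) in each IM library as a percent of the AM mean with the same genotype label, on a log axis. *Siglecf*, *Ear1* and *Krt79*, shown with symbols of their own because they lie nearest the members, range with *Fabp1*, *Cidec* and *Acaa1b*, while most of the other 11 markers lie above, and 10 to 13 of the 14 exceed all 3 members.

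Between the IM populations, *Lpl*, 3 binding proteins, *Cidec* and *Plin2* were among the genes higher in CD11c+ IMs, and *Acsl3*, *Fads2* and *Scd2* among those lower. Of the 48 members, 10 (20.8%) were up in CD11c+ IMs relative to the CD11c- population and 4 (8.33%) were down, beside 4.98% and 7.71% of all genes, and the median log2 fold change was 0.25 with -0.05 over all genes. Of 12 uptake genes 5 were higher and 1 lower, and of 8 storage genes 2 were higher. *Lpl* was higher by 1.90 ± 0.31 (adjusted p = 0.00657), *Fabp5* by 1.91 ± 0.38 (adjusted p = 0.0156), *Fabp4* by 1.66 ± 0.22 (adjusted p = 0.00294) and *Fabp1* by 1.52 ± 0.33 (adjusted p = 0.0199). The fifth was *Acsl5*, by 0.40 ± 0.10. For *Fabp4* the CD11c+ IM range of 28.5 to 55.2 CPM lay above the CD11c- IM range of 9.91 to 13.9 CPM, and *Lpl* did not overlap either. Storage added *Cidec* (1.91 ± 0.38, adjusted p = 0.0144) and *Plin2* (1.24 ± 0.30, adjusted p = 0.0294), synthesis *Elovl1* (0.51 ± 0.13), and oxidation *Cpt1a* (0.61 ± 0.13, adjusted p = 0.0196) and *Ppargc1b* (0.85 ± 0.19, adjusted p = 0.0217). The lower genes were *Fads2* (-1.90 ± 0.43, adjusted p = 0.0240), *Acsl3* (-1.69 ± 0.23, adjusted p = 0.00360), *Scd2* (-1.11 ± 0.20, adjusted p = 0.00962) and *Elovl6* (-0.69 ± 0.18). *Acaa1b* did not pass (1.30 ± 0.39, adjusted p = 0.0579), nor did the desaturases *Scd1* (-1.82 ± 0.67, adjusted p = 0.111) and *Fads1* (0.09 ± 0.41). The sum of 14 AM markers was also higher in CD11c+ IMs, at 4470 to 18000 CPM against 1420 to 3090 CPM in CD11c- IMs. Its part in the higher members was not tested.

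The count of 14 between the IM populations was less stable than those against AMs, although all 14 had the same sign within each genotype label. It was 5 without WT CD11c+ IM library 1, 7 without WT CD11c- IM library 1, 8 without WT CD11c+ IM library 2 and 8 and 9 without CD11c- IM library 1 and CD11c+ IM library 1 of the *Il9r*-/- label. Without the 3 WT libraries numbered 1, which are those with *Xist*, it was 1, against 20 and 34 for CD11c+ and CD11c- IMs against AMs. Only *Lpl*, *Fabp4*, *Acsl3* and *Scd2* kept an adjusted p under 0.05 when any single library was left out. *Fabp4* was the 1 left without those 3 libraries (adjusted p = 0.0396), when *Lpl* was at 1.86 (adjusted p = 0.110), *Acsl3* at -1.54 (0.103) and *Scd2* at -1.06 (0.131). A fit of the 4 IM groups alone gave 6 members and 7.6% of the genes it tested, and DESeq2 gave 22 members and 20.7% of all genes.

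Members higher in CD11c- IMs stood beside markers of melanocytes. *Dct*, a melanin enzyme, was 15.2, 51.8, 264 and 118 CPM in CD11c+ IMs and 3150, 1250, 3390 and 1210 CPM in CD11c- IMs, against 20 to 110 CPM in AMs. The sum of 11 such markers was 8020 and 3610 CPM in CD11c- IMs labelled *Il9r*-/- and 9630 and 3720 CPM in WT CD11c- IMs. In the same 4 libraries *Acsl3* was 52.0, 26.3, 55.2 and 38.5 CPM and *Fads2* 21.3, 6.81, 22.4 and 13.1 CPM. For both genes, for *Scd2* and for *Pltp* the libraries numbered 1 were the higher ones under each label. The sum of 16 IM markers had that order as well, at 26500, 13700, 26700 and 10500 CPM, so the order is not particular to melanocyte markers. *Scd1* did not share that order, and *Lipe* had the reverse one, at 23.8, 41.2, 14.8 and 33.9 CPM. *Fads1* shared it, but ran from 42.7 to 62.5 CPM in CD11c+ IMs and from 20.7 to 75.3 CPM in CD11c- IMs. Of the 12 melanocyte markers, 11 were lower in the CD11c+ population when both IM groups were compared, and 10 were above AMs in the CD11c- population. The first of those comparisons also had 11 of 21 lung epithelial markers lower, and their sum was 7560, 4070, 1070 and 2530 CPM in the CD11c- IM libraries. Dendritic cell markers went the other way, with 9 of 14 higher in CD11c+ IMs. The part of these cells in the members' values was not tested.

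**Figure D4:**
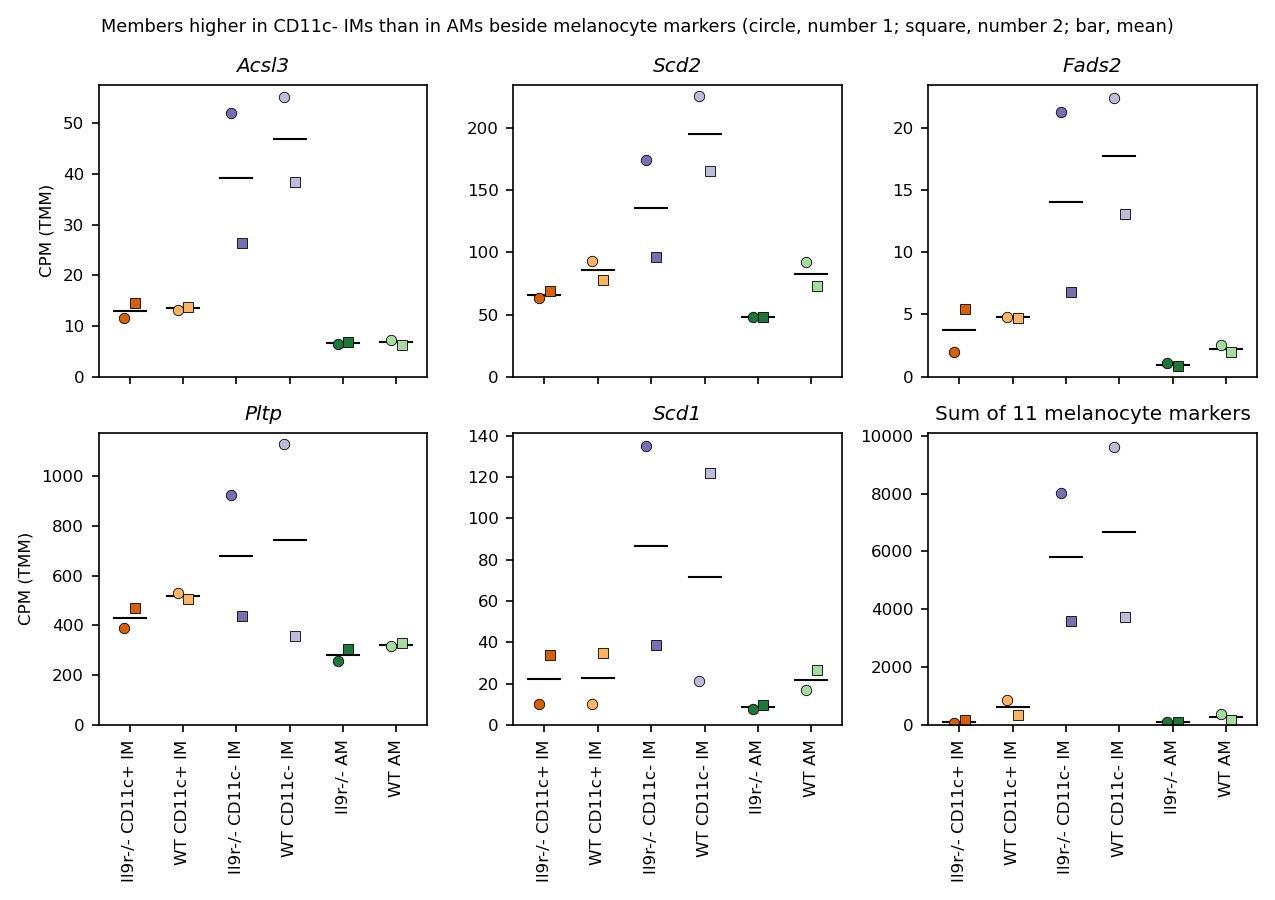
Level of 5 members and the sum of 11 melanocyte markers in each library in CPM on linear axes that start at 0, with a circle for library 1, a square for library 2 and a bar for the group mean. In CD11c- IMs the circle lies above the square for *Acsl3*, *Scd2*, *Fads2*, *Pltp* and the marker sum of 3610 to 9630 CPM, but not for *Scd1* in WT.

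Among members, levels per length were ordered by log2 FPKM, as a description. In CD11c+ IMs *Plin2* (9.48), *Fabp5* (9.01), *Pltp* (8.03) and *Lpl* (7.91) came first. CD11c- IMs were led by *Pltp* (8.46), *Plin2* (8.28) and *Fabp5* (7.07). In AMs the order was *Plin2* (10.62), *Lpl* (9.72), *Fabp1* (9.13) and *Cidec* (8.67). By this order among the 48 genes *Fabp1* had rank 22 in CD11c+ IMs and rank 31 in CD11c- IMs, against 3 in AMs, and *Cidec* had rank 27 and 42, against 4 in AMs. *Acaca* was last in all 3 populations.

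Between the genotype labels no member passed in any population. In simulated counts for CD11c+ IMs, the test recovered 4 of 67 genes with a log2 fold change of 1, and 48 of 67 with 2. The lack of calls therefore does not show that members were unchanged. In AMs 0 of 48 members had an adjusted p under 0.05 by edgeR, where 0.0205% of all genes did, and 1 member (2.08%) had an unadjusted p under 0.05, beside 4.08% of all genes. In CD11c+ IMs these counts were 0 and 4 (8.33%), beside 0.00683% and 3.88% of all genes, and in CD11c- IMs they were 0 and 1 (2.08%), beside 0.0% and 1.7%. Averaged over the 3 populations they were 0 and 6 (12.5%), beside 0.0273% and 5.63%. DESeq2 called 0 members in AMs, *Fabp1* and *Elovl6* in CD11c+ IMs, 0 in CD11c- IMs and *Fabp1* over the 3 populations, beside DESeq2 calls for 0.444%, 0.649%, 0.0614% and 1.2% of all genes. The median log2 fold change of the members was 0.07, 0.10 and 0.09 in AMs, CD11c+ IMs and CD11c- IMs. In each population the WT library numbered 1 carried *Xist* and no library labelled *Il9r*-/- did, so sex and label cannot be fully told apart.

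*Fabp1* had the lowest p in 3 of these 4 comparisons. In CD11c+ IMs it stood at 63.1 and 20.1 CPM under the *Il9r*-/- label against 10.3 and 7.58 CPM under WT, without overlap. The log2 fold change was 2.21 ± 0.47 (adjusted p = 0.482), and it was 1.15 ± 0.30 without CD11c+ IM library 1 of the *Il9r*-/- label. In CD11c- IMs the levels were 12.7 and 7.79 CPM against 4.05 and 4.83 CPM under WT (1.20 ± 0.46, adjusted p = 1.0), and in AMs 340 and 357 CPM against 201 and 234 CPM under WT (0.68 ± 0.45, adjusted p = 1.0). *Fabp1* was above WT in all libraries labelled *Il9r*-/- of each population, and over the 3 populations the value was 1.37 ± 0.26 (adjusted p = 0.224). It passed without CD11c+ IM library 2 of the *Il9r*-/- label (adjusted p = 0.0197).

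In CD11c+ IMs *Acaa1b* and *Cidec* shared the high library of *Fabp1*, although *Elovl6* had the next lowest p. *Acaa1b* was 62.2 and 17.7 CPM in CD11c+ IMs labelled *Il9r*-/- against 10.7 and 11.8 CPM in WT (1.83 ± 0.55, adjusted p = 0.888), and 0.65 ± 0.43 without library 1 of the *Il9r*-/- label. *Cidec* was 137 and 42.9 CPM against 35.8 and 29.9 CPM in WT (1.45 ± 0.52, adjusted p = 1.0), and 0.37 ± 0.43 without that library. In the same libraries the 14 AM markers summed to 18000 and 4470 CPM under the *Il9r*-/- label against 11300 and 12600 CPM under WT. As a percent of the AM mean with the same label, their median was 34.8% and 15.8%, against 21.1% and 25.2% under WT. Like the sum, most single markers were lowest in library 2 of the *Il9r*-/- label. *Siglecf* was not, at 65.1 and 34.3 CPM against 28.5 and 23.5 CPM under WT. The part of these markers in the differences was not tested. *Elovl6* was 10.8 and 12.1 CPM in CD11c+ IMs labelled *Il9r*-/- against 4.66 and 6.51 CPM in WT (1.04 ± 0.25, adjusted p = 0.610), and the WT libraries were the low ones.

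In AMs the members of lowest p were *Scd2*, *Elovl6* and *Fads2*. *Scd2* was 48 and 47.8 CPM in AMs labelled *Il9r*-/- against 92.1 and 72.7 CPM in WT AMs (-0.78 ± 0.28, unadjusted p = 0.0197, adjusted p = 1.0). *Elovl6* was 17.8 and 16.5 CPM against 11.1 and 13.0 CPM in WT AMs (0.51 ± 0.25), and *Fads2* 1.07 and 0.833 CPM against 2.54 and 1.99 CPM in WT AMs (-1.25 ± 0.63). None of the 3 overlapped between labels in AMs. *Scd2* was not lower in AMs only. In CD11c+ IMs it was 63.5 and 68.6 CPM under the *Il9r*-/- label against 93.4 and 78.1 CPM under WT. In CD11c- IMs its means were 135 and 196 CPM, with overlap between libraries. It was also among the members of lowest p over the 3 populations, without passing. The melanocyte marker sum was 111 and 89.2 CPM in AMs labelled *Il9r*-/- against 361 and 156 CPM in WT AMs, and its part was not tested. A fit of AMs alone called *Scd2*, *Scd1* and *Fabp1*, and 0.948% of the genes it tested. In CD11c- IMs *Slc27a4*, a fatty acid transport protein, followed *Fabp1* and *Acaa1b*, at 41.8 and 49 CPM under the *Il9r*-/- label against 25.5 and 37.7 CPM under WT (0.52 ± 0.27, adjusted p = 1.0). *Lpl*, *Plin2*, *Cd36* and *Cpt1a* had log2 fold changes between -0.19 and 0.21 in the 3 populations.

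**Figure D5:**
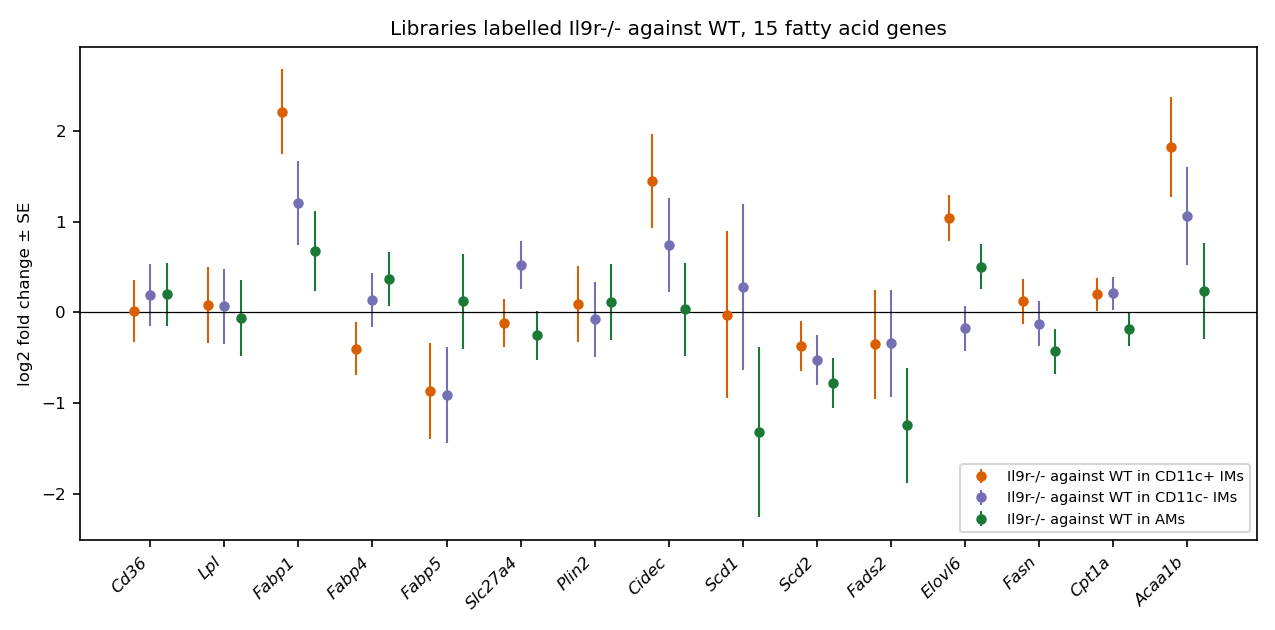
Log2 fold change ± SE between libraries labelled *Il9r*-/- and WT libraries for 15 members in each population, where no value has an adjusted p under 0.05. *Fabp1* is at 2.21 in CD11c+ IMs, 1.20 in CD11c- IMs and 0.68 in AMs, and *Lpl*, *Plin2* and *Cd36* lie near 0.

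Whether the genotype difference itself varied between populations was tested directly. For CD11c+ IMs minus AMs, 0 members and 0.0% of all genes passed. *Fabp1* was the 1 member with an unadjusted p under 0.05 (1.54 ± 0.64, unadjusted p = 0.0383, adjusted p = 1.000), where 2.82% of all genes had one. For CD11c- IMs minus AMs, 0 members and 0.0% of all genes passed, and 0 members had an unadjusted p under 0.05, beside 2.3% of all genes. DESeq2 called 0 members in either, with 0.123% and 0.0887% of all genes.

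Other genes of the same pathways, also listed with earlier results of these data known, were tested against AMs. Of 102 further genes in the table, 32 (31.4%) were lower and 10 (9.8%) higher in CD11c+ IMs, beside 10.7% and 15.9% of all genes. In CD11c- IMs 35 (34.3%) were lower and 25 (24.5%) higher, beside 17.8% and 27.9%. Of 44 oxidation genes, 21 were lower and 3 higher for CD11c+ IMs, and 19 were lower and 5 higher for CD11c- IMs. Of 19 storage genes the lower ones were 6 and 9, with 0 and 3 higher. Synthesis and uptake had more higher than lower genes in CD11c- IMs, 9 against 3 of 21 and 8 against 4 of 18. In storage, *Cideb*, a droplet protein related to *Cidec*, was 0.381 to 1.41 CPM in CD11c+ IMs and 0.0478 to 0.393 CPM in CD11c- IMs against 5.57 to 7.53 CPM in AMs (-3.05 ± 0.48 and -5.12 ± 0.54). *G0s2*, an inhibitor of the lipase encoded by *Pnpla2*, was 178 and 458 CPM (labelled *Il9r*-/-) and 39.6 and 287 CPM (WT) in CD11c- IMs, against 20.2 to 36.8 CPM in AMs (2.92 ± 0.74, adjusted p = 0.0108). The neutrophil marker sum had the same order of libraries in each IM population, and the dendritic cell marker sum had it in CD11c+ IMs only. The part of either was not tested. In uptake, *Slc27a3* was 11.4, 31.8, 11.6 and 22.3 CPM in CD11c+ IMs, against 0.762 to 2.19 CPM in CD11c- IMs, and was higher by 3.67 ± 0.44 (adjusted p = 0.00217). It was at 0.289 to 0.861 CPM in AMs. Dendritic cell markers summed to 891 to 3910 CPM in CD11c+ IMs and 228 to 958 CPM in CD11c- IMs, against 42.2 to 85.1 CPM in AMs. Under each label CD11c+ IM library 2 was the higher one for *Slc27a3* and for dendritic cell, neutrophil and B cell marker sums. The part of these cells was not tested. In oxidation, the coactivator *Ppargc1a* went opposite to *Ppargc1b*. It was 1.79, 1.41, 9.11 and 4.23 CPM in CD11c+ IMs and 84.3, 26.5, 76.0 and 28.9 CPM in CD11c- IMs, against 0.801 to 2.54 CPM in AMs (5.16 ± 0.53 in CD11c- IMs, adjusted p = 0.000104). Its highest CD11c- IM libraries were those with the highest melanocyte marker sums and also the highest IM marker sums. The part of either was not tested. *Cpt1c*, also listed under oxidation, was 1.33 to 4.84 CPM in CD11c+ IMs and 4.97 to 16.7 CPM in CD11c- IMs, against 0.0782 to 0.434 CPM in AMs. Its log2 fold change in CD11c+ IMs was 3.19 ± 0.67 (adjusted p = 0.00769, edgeR quasi-likelihood test). *Elovl7* in synthesis was higher in both IM populations (2.26 ± 0.58 and 4.01 ± 0.61).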

How the data were processed

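Members and lists were chosen with earlier results of these data known. Per the labels and methods, the authors sorted macrophages by FACS, made libraries with SMART-Seq v4, aligned reads to mm10 with STAR 2.5 and deposited counts per refGene gene from featureCounts of Subread 1.5.1, with genes of low CPM removed. Counting used the reverse-strand setting, while the kit does not mark strand, so antisense partners cannot be told apart and the effect on the counts was not tested. The authors' deposited log2 FPKM values were used only to order levels within a population. Deposited comparisons (fold changes, p-values) were not used. Every sample column was matched by name, and 0 were left over. Depth was 26988617 to 42020021 counts per library.

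Counts were tested with edgeR 4.0.16 (R 4.3.3): a minimum of 0.5 CPM in 2 libraries (met by 14648 of 14648 genes), TMM, a robust quasi-likelihood fit of 6 groups with 6 residual degrees of freedom, and Benjamini-Hochberg adjustment over all genes. CPM values are TMM-normalized. Population contrasts average both genotypes. SE is the log2 fold change divided by the square root of F. The script was tested on simulated data. Alternatives were DESeq2 1.42.0, RLE size factors, other filters, fits of the compared groups, within-genotype contrasts, a replicate block, and leaving out libraries. Named members are 11 set genes, up to 4 more per role with the largest changes at 20 CPM or above, and those passing between IMs or leading between genotypes. Other pathway genes are up to 4 per role, with some at low levels left out. *Siglecf*, *Ear1*, *Krt79* and *Dct* fall outside the rule and were picked with their values known. Transcript words of 100 bases shared between genes came from GENCODE.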

Additional observations from a re-analysis of the deposited data

How the results depend on the processing

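The counts of members called against AMs stayed within 1.5 times of 29 for CD11c+ IMs and 39 for CD11c- IMs under DESeq2, RLE size factors, no filter, a filter of 1 CPM in 4 libraries, a fit of the compared groups, and any single library left out (23 to 31 and 32 to 40), but CD11c+ IMs gave 18 within the *Il9r*-/- label. Between the IM populations the count of 14 was 22 with DESeq2, 6 with the 4 IM groups alone in the fit, 2 within WT, 1 within the *Il9r*-/- label, 1 without the 3 WT libraries numbered 1, and 5 to 18 with single libraries left out. Between genotype labels, where no member passed, the fit of the compared groups called 3 in AMs, DESeq2 called 2 in CD11c+ IMs and 1 over the 3 populations, and leaving out single libraries gave 0 to 1 over the 3 populations. An unadjusted p under 0.05 gave 1, 4, 1 and 6 members in AMs, CD11c+ IMs, CD11c- IMs and over the 3 populations, and with an absolute log2 fold change over 1 it gave 4, 1 and 2 in the last 3. The cause was not tested. With 2 libraries a group, single members near the threshold depend on each library.

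With the replicate number as a block the counts were 34, 39 and 16 members for the 3 population comparisons and 0 for those of genotype. The labels do not say that a number marks a shared animal. Differences between libraries 2 and 1 correlated between populations at 0.176, 0.179 and 0.387 under WT, where the 3 libraries numbered 1 share *Xist*, and at 0.0812, 0.0866 and 0.174 under the *Il9r*-/- label. Between the labels within a population they correlated at 0.251 in CD11c+ IMs, 0.410 in CD11c- IMs and 0.000921 in AMs. In IMs the number thus partly tracked a difference shared by both labels. Since the correlations within a label did not all exceed 0.1, the numbers were not taken as pairs, although those under WT may be.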
